A study of Mus musculus with 6 samples.

Results

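The 10 transcription factors described here are known from embryonic mesenchyme and from epithelial-mesenchymal transition (EMT), and were looked up by symbol in RNA sequencing of mouse embryonic fibroblasts (MEFs) from a line labelled Nf2 KO and its control line. Of the 10 listed genes, 9 have a row among the 26231 genes of the table (Twist1, Twist2, Prrx1, Prrx2, Snai1, Snai2, Zeb1, Zeb2 and Tcf4), and all 9 passed the filter on low values. Tcf21 was not analysed here. The genes were looked up by name and no measured value enters the rule, but the list was chosen with earlier results of these data known.

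The 6 libraries come from an FVB strain line of MEFs, taken from embryos of approximately 14 days by the labels. All cells carried Nf2 alleles flanked by loxP sites (Nf2fl/fl) and were immortalized with SV40 large T antigen, so the controls carry both as well. The 3 libraries labelled WT (control) are MEF Nf2fl/fl given a GFP lentivirus without Cre, and the 3 labelled Nf2 KO are named MEF Nf2-/- and were given a lentivirus in which the CMV promoter drives Cre. Both were kept in 10% FBS and then in serum-free medium for 24 h before RNA was taken. The labels number the replicates 1 to 3 in both lines and mark replicate 3 of each with 2018. A single line of each kind was sequenced and no label ties the replicates to separate embryos or transductions, so p-values measure the spread between libraries of these lines, which may be technical, and loss of Nf2 cannot be told apart from other differences between the lines.

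TWIST1 and TWIST2 are basic helix-loop-helix factors that pair with E proteins such as the product of Tcf4 (E2-2, not the Wnt pathway factor that is also called TCF4). SNAI1, SNAI2, ZEB1 and ZEB2 are zinc finger repressors that bind E-box sequences, among them those of the E-cadherin gene Cdh1, and PRRX1 and PRRX2 are paired-related homeodomain factors of limb and craniofacial mesenchyme. In epithelia these factors switch cells to a mesenchymal state, whereas in fibroblasts they are part of the resident program. Merlin, the product of Nf2, restrains the coactivators YAP and TAZ, which act through TEAD factors.

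The promoter sequences of 4 members are given because they hold, or lack, the motifs that these pathways are read through, and because Twist1 and Twist2 differed in opposite directions between the lines. Each runs from 250 bases before to 50 bases after the RefSeq start site (GRCm38.p6), 5′ to 3′ on the gene's strand. Capitals mark matches on either strand to CACCTG (an E-box read by SNAI and ZEB proteins), GGAATG (the core read by TEAD factors) or TATAAA.
Twist1, chr12:33957421-33957720, plus strand: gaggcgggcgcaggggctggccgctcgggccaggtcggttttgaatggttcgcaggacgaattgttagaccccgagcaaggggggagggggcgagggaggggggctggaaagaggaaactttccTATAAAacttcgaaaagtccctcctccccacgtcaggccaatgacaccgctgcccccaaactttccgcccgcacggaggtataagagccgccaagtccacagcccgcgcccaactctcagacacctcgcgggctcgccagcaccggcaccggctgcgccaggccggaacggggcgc
Twist2, chr1:91801211-91801510, plus strand: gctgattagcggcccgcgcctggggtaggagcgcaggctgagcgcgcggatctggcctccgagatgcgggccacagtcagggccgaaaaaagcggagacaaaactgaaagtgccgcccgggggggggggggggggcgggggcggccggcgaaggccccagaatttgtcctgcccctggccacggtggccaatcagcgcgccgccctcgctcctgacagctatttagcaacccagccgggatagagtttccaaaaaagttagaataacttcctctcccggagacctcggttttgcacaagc
Prrx1, chr1:163313601-163313900, minus strand: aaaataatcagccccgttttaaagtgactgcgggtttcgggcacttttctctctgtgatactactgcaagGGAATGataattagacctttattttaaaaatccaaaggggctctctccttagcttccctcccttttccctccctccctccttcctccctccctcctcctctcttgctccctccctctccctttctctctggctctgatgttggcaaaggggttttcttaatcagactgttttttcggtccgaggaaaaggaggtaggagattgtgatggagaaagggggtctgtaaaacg
Snai1, chr2:167537945-167538244, plus strand: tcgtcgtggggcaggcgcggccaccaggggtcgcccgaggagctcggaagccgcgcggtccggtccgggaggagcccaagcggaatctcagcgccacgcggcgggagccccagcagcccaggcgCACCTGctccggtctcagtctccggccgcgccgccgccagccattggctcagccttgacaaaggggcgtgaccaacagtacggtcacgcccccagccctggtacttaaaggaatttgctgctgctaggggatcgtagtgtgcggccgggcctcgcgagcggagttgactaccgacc
Only the Snai1 window of these 4 holds CACCTG, at position -126 from the start site, and it is the window's only CANNTG, the general E-box. The Twist1, Twist2 and Prrx1 windows hold no CANNTG in these letters. Of 32851 RefSeq windows of the same length, 20.2% hold CACCTG and 72.3% hold CANNTG. The Prrx1 window holds GGAATG at position -180 (14.7% of all windows hold it), and the Twist1 window TATAAA at position -126 (13.6% of all windows). CACCTG is itself one form of CANNTG. A match is a description of the letters and not a binding site. Windows of Prrx2, Zeb2 and Tcf21 are not shown. Of these, 1 of 4 Zeb2 windows holds GGAATG, at position -157. The rest of them hold no match, and Snai2, Zeb1 and Tcf4 are named only.

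Nf2, the gene that the labels give as deleted, had 14.3, 13.7 and 13.1 RPKM (a read count scaled to exon length and to library size) in the control replicates 1, 2 and 3 and 15.4, 12.9 and 13.9 RPKM in the libraries labelled Nf2 KO. The lines overlapped, and the labels are therefore not borne out by the Nf2 level, which is one value for the whole gene. Every direction below follows the labels. The steps between low values put the depth at 13428884 to 72910883 reads per library, with replicate 3 the deepest in both lines, which gave the members between 88 and 15964 reads. Of 10 fibroblast markers 9 were tested, and Col1a1, Vim and Fn1 were high in every library, at 265 RPKM or more. Lum stayed under 0.25 RPKM throughout, and Dcn had 1.60 to 4.01 RPKM in the controls and 0.0266 to 0.133 RPKM in the libraries labelled Nf2 KO. The summed level of the fibroblast markers ran from 1850 to 2550 RPKM in the controls and from 1440 to 1880 RPKM in the libraries labelled Nf2 KO. Of the 9 tested, 3 were lower without the block and 5 with it (0.578% and 4.54% of all genes). Dcn, among both, was tested only through the controls. Their part in the results below was not tested. Of the markers of other cell types with a row, 13 of 14 macrophage, 9 of 10 endothelial, 8 of 9 skeletal muscle and 8 of 10 neural genes were under 1 RPKM in every library. Their summed levels ran from 7.12 to 9.27 and from 6.11 to 7.51 RPKM for macrophage, from 1.56 to 4.11 and from 1.67 to 4.76 RPKM for endothelial, from 0.976 to 6.75 and from 0.855 to 3.10 RPKM for muscle and from 2.67 to 5.21 and from 1.64 to 2.88 RPKM for neural genes, in control libraries and in those labelled Nf2 KO. Those above 1 RPKM in any library were Cd68 (5.08 to 8.1 RPKM), Kdr (1.32 to 4.39), Acta1 (0.252 to 6.25), Tubb3 (0.638 to 2.31) and Stmn2 (0.454 to 3.03), of which Stmn2 was lower in the blocked fit (adjusted p = 0.0462 from limma). Ptprc, Pecam1, Pax7 and Sox10 were at or near 0.

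The mesenchymal factors were expressed at moderate levels, and their order by RPKM, which is scaled to length, was led by the same gene in both lines. Twist1 had the highest control mean, 29.6 ± 1.84 RPKM (SD, n = 3), followed by Snai2 with 24.3 ± 3.27, Prrx1 with 20.4 ± 3.64, Snai1 with 13.7 ± 1.58, Twist2 with 10.0 ± 1.29, Prrx2 with 7.78 ± 6.19, Tcf4 with 4.82 ± 1.44, Zeb1 with 3.66 ± 0.835 and Zeb2 with 2.50 ± 0.704 RPKM. Neighbours in this order were apart only between Prrx1 and Snai1 and between Snai1 and Twist2. All other neighbours overlapped in the control libraries. In the libraries labelled Nf2 KO the order was Twist1, Snai2, Snai1, Prrx1, Twist2, Prrx2, Zeb1, Tcf4 and Zeb2, and the neighbours that did not overlap were Twist1 and Snai2, and Snai2 and Snai1. Over all 6 libraries the mean of Twist1 lay above 88.3% of the 11067 genes tested, and that of Zeb2 above 15.1%.

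**Figure D1:**
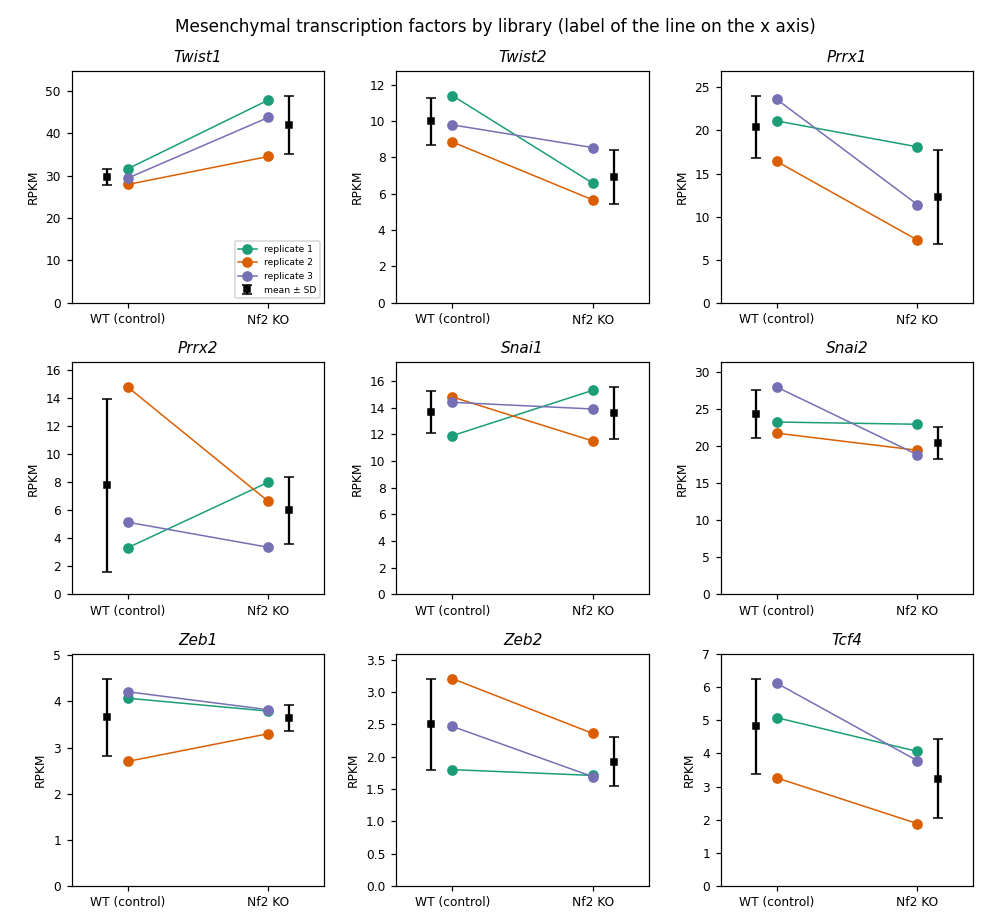
RPKM of the 9 factors (y axis, from 0) in the libraries labelled WT (control) and Nf2 KO (x axis), where lines join same-numbered replicates and black squares give the mean ± SD of 3 libraries. Twist1 was higher and Twist2 lower in all 3 libraries labelled Nf2 KO than in any control library, and Prrx2 had its highest value, 14.8 RPKM, in control replicate 2.

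The main question put to these genes was whether the lines differ in them. Twist1 was higher and Twist2, Prrx1 and Tcf4 were lower in the libraries labelled Nf2 KO by 0.47 to 0.76 on the log2(RPKM + 1) scale, while the log2 fold changes of Snai1 and Zeb1 were -0.015 and 0.007. Without regard to the replicate number, 0 of the 9 genes passed an adjusted p of 0.05 (limma, Benjamini-Hochberg over all 11067 genes), against 1.06% of all genes tested. Before adjustment 3 had p under 0.05 (Twist1, Twist2 and Prrx1), against 9.91% of all genes, and limma's voom on recovered reads also called 0. Libraries that share a replicate number also shared deviations. When that number entered as a block, 2 of the 9 passed, against 7.53% of all genes (5 of the 9 before adjustment, against 23.2%). These were Twist1, higher against 2.99% of all genes, and Tcf4, lower against 4.54%. On simulated data the share of unchanged genes among the calls of this blocked fit was above its threshold. In 7 of the 9 the log2 fold change was negative, against 52.1% of all genes, with a median over the members of -0.239 against -0.008 over all genes tested. Groups did not overlap in 2 of the 9, Twist1 and Twist2, against 15.1% of all genes (Twist1 above against 7.6%, Twist2 below against 7.52%). In all 3 same-numbered pairs 6 of the 9 differed in 1 direction, against 46.9% of all genes: 1 was higher (22.3% of all genes) and 5 were lower (24.6%). In bulk RNA, fewer cells that express a gene and less of its RNA in each cell cannot be told apart.

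**Figure D2:**
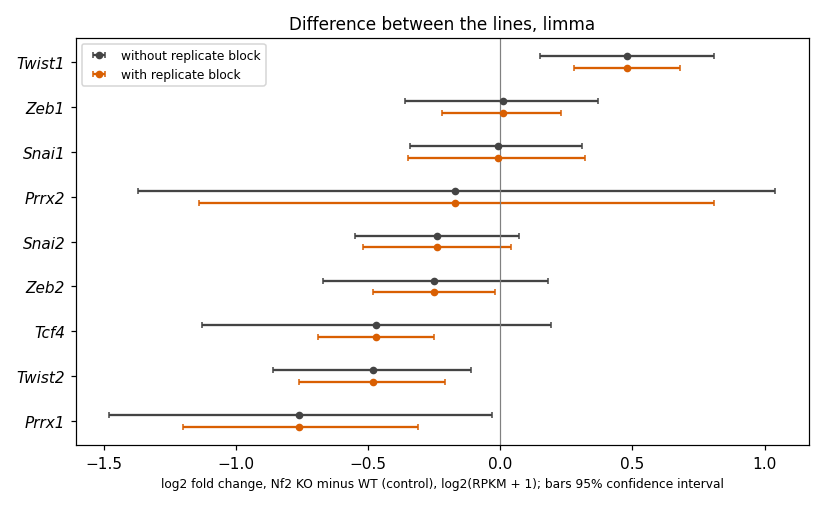
Log2 fold change of each factor (x axis, libraries labelled Nf2 KO minus WT (control), on log2(RPKM + 1)) from limma, either unblocked or blocked on the replicate number, where bars are 95% confidence intervals. The block leaves each difference as it is and narrows most intervals, and the Prrx2 interval stays the widest, from -1.14 to 0.81 with the block.

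Among the TWIST pair, Twist1 lies on chromosome 12 of GRCm38 from 33957671 to 33959829, plus strand, in the GENCODE vM21 annotation. It had 31.6, 27.9 and 29.4 RPKM in control replicates 1, 2 and 3 and 47.8, 34.5 and 43.7 RPKM in the libraries labelled Nf2 KO. The lowest of the latter was above the highest control. The mean was 41.8% higher, at 42.0 ± 6.84 against 29.6 ± 1.84 RPKM (n = 3 each, SD), with log2 fold change 0.48 (standard error [SE] 0.14, 95% confidence interval 0.15 to 0.81, adjusted p = 0.247 from limma). Blocked, it had an adjusted p of 0.0289 (SE 0.08). Within replicates 1, 2 and 3 the difference was 0.58, 0.30 and 0.56. The blocked call was lost without replicate 1 (adjusted p = 0.0975 from limma) and without replicate 3 (0.101) and held without replicate 2 (0.0435).

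Twist2, on chromosome 1 from 91801461 to 91848028, plus strand, encodes a close relative that is also found in dermal fibroblasts. Its values were 11.4, 8.85 and 9.79 RPKM in the controls and 6.58, 5.66 and 8.54 RPKM in the libraries labelled Nf2 KO. All of the latter were below all controls, with 8.54 RPKM in the highest of them and 8.85 RPKM in the lowest control. The mean was 6.93 ± 1.47 against 10.0 ± 1.29 RPKM (n = 3 each, SD), with log2 fold change -0.48 (SE 0.16, 95% confidence interval -0.86 to -0.11, adjusted p = 0.324 from limma, 0.0642 when blocked on the replicate number). Differences within replicates 1, 2 and 3 were -0.71, -0.57 and -0.18. Without replicate 3 the blocked adjusted p was 0.0274 from limma, past the threshold. An annotated gene, Gm29100, overlaps Twist2 exons on the opposite strand, and whether reads were counted by strand is not stated.

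The TWIST genes were also read against each other within each library. The ratio of Twist1 to Twist2, taken in RPKM, was 2.77, 3.15 and 3.00 in the controls and 7.27, 6.10 and 5.12 in the libraries labelled Nf2 KO. On the log2(RPKM + 1) scale its mean was 1.48 ± 0.080 in the controls and 2.44 ± 0.23 in the libraries labelled Nf2 KO (SD, n = 3 each), a difference of 0.96. The ratios of the lines were bound to be apart, since all Twist1 values were higher and all Twist2 values lower in the libraries labelled Nf2 KO, so no test of it is given. This is 1 of 4 paralog ratios that were compared. None of the 31-base stretches of either gene occurs in transcripts of another gene.

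**Figure D3:**
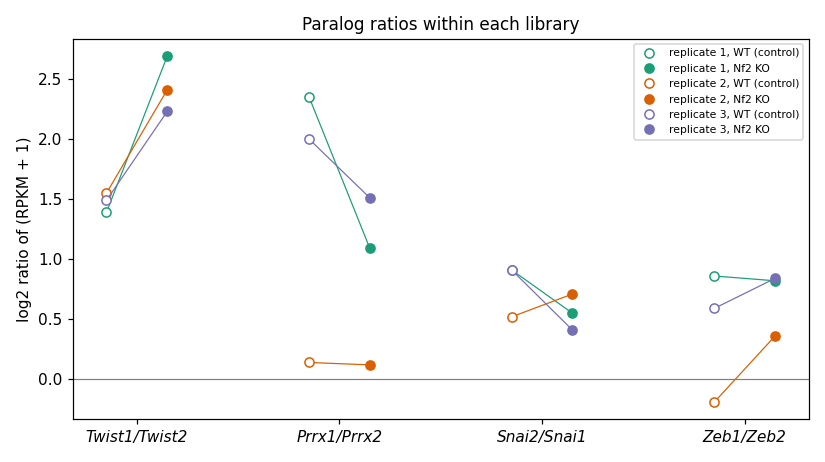
Log2 ratio of (RPKM + 1) between paralogs (y axis) in each library, with open circles for WT (control), filled circles for Nf2 KO and lines that join same-numbered replicates. Only for Twist1/Twist2 of these 4 ratios do the filled circles, at 2.23 to 2.69, lie apart from the open ones, at 1.39 to 1.55.

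For the PRRX pair, no difference between the lines passed the threshold with or without the block. Prrx1, on chromosome 1 from 163245119 to 163313710, minus strand, had 21.1, 16.4 and 23.6 RPKM in control replicates 1, 2 and 3 and 18.1, 7.29 and 11.4 RPKM in the libraries labelled Nf2 KO. The libraries labelled Nf2 KO were lower in every same-numbered pair, but replicate 1 of them was above control replicate 2, so the groups overlapped. The mean was 12.3 ± 5.47 against 20.4 ± 3.64 RPKM (n = 3 each, SD), with log2 fold change -0.76 (SE 0.30, 95% confidence interval -1.48 to -0.03, adjusted p = 0.47 from limma, 0.0699 when blocked on the replicate number). Within replicates 1, 2 and 3 it differed by -0.21, -1.07 and -0.99. Without replicate 1 the difference was -1.03 and the blocked adjusted p 0.0124 from limma.

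Prrx2, on chromosome 2 from 30834972 to 30881251, plus strand, was the most variable member, with an SD of 0.71 over the 6 libraries on the log2(RPKM + 1) scale. It had 3.33, 14.8 and 5.15 RPKM in the controls and 8.01, 6.64 and 3.36 RPKM in the libraries labelled Nf2 KO. Control replicate 2 was the highest of all libraries and control replicate 1 the lowest. Differences within replicates were 1.06, -1.05 and -0.50, so the pairs did not share a direction. The log2 fold change was -0.17 (SE 0.50, 95% confidence interval -1.37 to 1.04, adjusted p = 0.987 from limma), an interval too wide to exclude a difference of 1 in either direction. It was 0.37 without control replicate 2 and -0.78 without replicate 1 of both lines. The ratio of Prrx1 to Prrx2 in RPKM was 6.32, 1.11 and 4.58 in the controls and 2.26, 1.10 and 3.40 in the libraries labelled Nf2 KO, lowest in replicate 2 of both lines (exact permutation test of the log2 ratio, two-sided, p = 0.5). That test does not use the replicate numbers. Within each number the ratio was lower in the library labelled Nf2 KO, though barely so in replicate 2.

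By a fixed rule, the tested genes with the most similar pattern over the 6 libraries were named for members whose SD was at least 0.5 on that scale, which were Prrx1 and Prrx2. Likeness was the root mean square difference between values centred on their mean over the 6 libraries. For Prrx1 the nearest were Fmnl2 (0.135), Hsd3b7 (0.150) and Dap (0.158). For Prrx2 they were Tnfrsf11b (0.149), Id2 (0.177) and Id1 (0.285). Id1 had 20.9, 81.3 and 25.3 RPKM in the controls and 43.2, 55.2 and 29.7 RPKM in the libraries labelled Nf2 KO, and Id2 1.4, 6.88 and 2.11 against 3.95, 3.98 and 2.01 RPKM. ID proteins lack the basic region and block helix-loop-helix factors by taking up their E protein partners.

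The SNAI genes, for the repressors named after Drosophila Snail, showed no difference past the threshold. Snai1, on chromosome 2 from 167538195 to 167542814, plus strand, had 11.9, 14.8 and 14.4 RPKM in the controls and 15.3, 11.5 and 13.9 RPKM in the libraries labelled Nf2 KO. Its groups overlapped, and the log2 fold change was -0.01 (SE 0.14, 95% confidence interval -0.34 to 0.31, adjusted p = 0.996 from limma). Snai2, on chromosome 16 from 14705852 to 14709385, plus strand, encodes Slug, a factor of neural crest and fibroblasts. It had 23.2, 21.7 and 27.9 RPKM in the controls and 22.9, 19.4 and 18.8 RPKM in the libraries labelled Nf2 KO. Each same-numbered pair was lower in the library labelled Nf2 KO, by 0.02, 0.15 and 0.54 on the log2 scale, but the groups overlapped. The log2 fold change was -0.24 (SE 0.13, 95% confidence interval -0.55 to 0.07, adjusted p = 0.683 from limma, 0.27 when blocked on the replicate number). Snai2 was 1.36 to 1.95 times as high as Snai1 in RPKM in every library. Of the 31-base stretches of Snai2 2.92% also occur in other genes.

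The ZEB genes had the lowest means in the controls, and in the libraries labelled Nf2 KO Tcf4 lay between them. Zeb1, on chromosome 18 from 5591860 to 5775467, plus strand, had 4.07, 2.70 and 4.21 RPKM in the controls and 3.79, 3.30 and 3.82 RPKM in the libraries labelled Nf2 KO. All of the latter lay within the range of the controls, and the log2 fold change was 0.01 (SE 0.15, 95% confidence interval -0.36 to 0.37, adjusted p = 0.998 from limma). Zeb2, on chromosome 2 from 44983632 to 45117395, minus strand, had 1.80, 3.21 and 2.47 RPKM in the controls and 1.71, 2.36 and 1.69 RPKM in the libraries labelled Nf2 KO. Every pair was lower in the library labelled Nf2 KO, by 0.05, 0.33 and 0.37 on the log2 scale, while the groups overlapped. Its log2 fold change was -0.25 (SE 0.18, 95% confidence interval -0.67 to 0.18, adjusted p = 0.821 from limma, 0.186 when blocked on the replicate number), and it was -0.104 without control replicate 2 and -0.397 without control replicate 1. Replicate 2 was the lowest of its line for Zeb1 and the highest of its line for Zeb2, in both lines. Antisense genes, Gm10125 at Zeb1 and Zeb2os at Zeb2, overlap their exons.

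Tcf4, the E protein partner, on chromosome 18 from 69343356 to 69689079, plus strand, had 5.08, 3.26 and 6.12 RPKM in control replicates 1, 2 and 3. In the libraries labelled Nf2 KO it had 4.06, 1.88 and 3.78 RPKM. Every pair was lower in the library labelled Nf2 KO, by 0.26, 0.57 and 0.57 on the log2 scale, and replicate 2 was the lowest of each line. The groups overlapped. The mean was 3.24 ± 1.19 against 4.82 ± 1.44 RPKM (n = 3 each, SD), with log2 fold change -0.47 (SE 0.27, 95% confidence interval -1.13 to 0.19, adjusted p = 0.73 from limma). The log2 fold change was -0.21 without Nf2 KO replicate 2 and -0.307 without control replicate 3. Blocked, it had an SE of 0.09 and an adjusted p of 0.0364. This call held without replicate 1 (adjusted p = 0.0438 from limma) and was lost without replicate 2 (0.135) and without replicate 3 (0.13). The other E protein genes did not pass in either fit. Tcf3 (E2A) had 32.9 ± 3.31 and 34.2 ± 5.0 RPKM, and Tcf12 (HEB) 9.36 ± 0.480 and 9.53 ± 0.377 RPKM (SD, n = 3 each), in the controls and in the libraries labelled Nf2 KO.

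A further 5 lists place these factors in their pathway. The first held 29 E proteins, ID antagonists, corepressors and coactivators that the members work with. All 29 were tested and 0 passed with limma, with and without the replicate block (0 at an unadjusted p under 0.05 without it, 6 with it, and 0 by voom). Of all genes 1.06% passed without and 7.53% with the block, and 9.91% and 23.2% before adjustment. Their median log2 fold change was 0.049, and Id3 had the largest, 0.79, at 58.3 ± 39.8 and 90.6 ± 27.6 RPKM (SD, n = 3 each, adjusted p = 0.72 from limma). The chromatin remodelling ATPase genes Smarca4 and Chd4, next to Id3 in mean level, had log2 fold changes of 0.08 and 0.02. The second held 20 kinases, ubiquitin ligase subunits and other proteins that set the turnover of SNAI1, TWIST1 and their relatives. Of these 1 passed without the block, and it was lower, against 0.578% of all genes called lower. This was Pak1, a kinase that phosphorylates SNAI1, which fell from 10.2 ± 1.52 to 4.54 ± 0.853 RPKM (n = 3 each, SD), with log2 fold change -1.02 (SE 0.15, adjusted p = 0.0399 from limma). With no filter on low values 0 of the list passed, and 0 passed without control replicate 1 or 3 or without Nf2 KO replicate 1, 2 or 3. In the blocked fit, which called 7.53% of all genes, Lats2, a Hippo pathway kinase, also passed, higher at 15.8 ± 4.54 against 10.5 ± 3.72 RPKM (SD, n = 3 each, adjusted p = 0.0159 from limma with the block). The median of the 20 was -0.008.

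Among other transcription factors of embryonic mesenchyme, 3 passed the threshold without the block. Of 75 listed, 70 have a row and 44 were tested. Foxf1, a target of hedgehog signalling in visceral mesenchyme, rose from 0.530 ± 0.0139 to 3.48 ± 0.821 RPKM, and Zfp521, a zinc finger regulator of mesenchymal progenitors, from 1.29 ± 0.542 to 5.55 ± 0.847 RPKM (SD, n = 3 each), each with log2 fold change 1.53 (adjusted p = 0.0137 and 0.0301 from limma). Foxl1, a forkhead gene of subepithelial mesenchyme, fell from 2.87 ± 0.525 to 0.731 ± 0.208 RPKM (n = 3 each, SD), with log2 fold change -1.16 (adjusted p = 0.0319 from limma). These were 3 of the 44, against 1.06% of all genes (21 of the 44 before adjustment, against 9.91%), and 15 passed in the blocked fit, 5 higher and 10 lower, against 7.53% of all genes. Foxf1 and Foxl1, and with the block Foxf2 and Msx2, reached the filter of 1 RPKM only in the line where they were higher, and with no filter 0 of the list passed the unblocked fit. In that fit 0 also passed without control replicate 1 or 3 or without Nf2 KO replicate 1. It called 1 without Nf2 KO replicate 3, and 3 without replicate 2 of either line. Besides Foxf1, Zfp521 and Foxl1, those with the largest absolute log2 fold change among the 15 were Etv4 (-1.06), Msx2 (-0.87), Foxf2 (-0.84), Nr2f1 (-0.84), Klf4 (-0.83), Etv5 (-0.80) and Sox11 (0.74), all past the threshold only with the block. The list's median log2 fold change was -0.074.

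Epithelial genes, which SNAI and ZEB proteins repress, were mostly near 0. Of 48 listed, 46 have a row and 31 were under 1 RPKM in every library, Cdh1 among them with 0 to 0.0419 RPKM and Epcam with 0.0236 to 0.216 RPKM. Only 12 were tested, and 0 passed with limma without the block (2 at an unadjusted p under 0.05, 0 by voom), against 1.06% of all genes (9.91% unadjusted). With the block 2 were higher, against 2.99% of all genes: Llgl2, a cell polarity gene, at 6.33 ± 1.45 against 2.90 ± 0.414 RPKM (adjusted p = 0.00615 from limma with the block), and Esrp2, an epithelial splicing regulator, at 1.65 ± 0.208 against 0.771 ± 0.0821 RPKM (0.0191, SD, n = 3 each). Esrp2 was under 1 RPKM in every control and was tested only through the libraries labelled Nf2 KO. The median of the 12 was -0.037.

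Genes that mark the mesenchymal state gave more lower than higher calls. Of 46 listed, 41 were tested, and 5 fell and 0 rose without the block, against 0.578% of all genes called lower and 0.479% higher: Pdgfra, the PDGF receptor of fibroblast progenitors, Dcn (decorin), Mmp3 (stromelysin), S100a4 (FSP1) and Fn1 (fibronectin), with log2 fold changes of -2.35, -1.72, -1.28, -1.21 and -0.63 (adjusted p = 0.0329, 0.0348, 0.0217, 0.0329 and 0.039 from limma). Dcn and Mmp3 were tested only through the controls, since both were under 1 RPKM in every library labelled Nf2 KO, and with no filter on low values 0 of the list passed. Unblocked, 0 also passed without control replicate 1 or 3 or without Nf2 KO replicate 1. There were 4 without control replicate 2, 2 without Nf2 KO replicate 2 and 1 without Nf2 KO replicate 3. Pdgfra, Dcn and Fn1 are also on the fibroblast marker list. S100a4 went from 684 ± 62.9 to 297 ± 59.0 RPKM and Fn1 from 475 ± 17.9 to 305 ± 9.43 RPKM (SD, n = 3 each). With the block 20 of the 41 passed, against 7.53% of all genes. Of these 16 were lower and 4 higher, against 4.54% and 2.99% of all genes, the 4 higher being Wnt5a (0.93), Acta2 (0.72), Col5a2 (0.61) and Cdh2. Those lower only with the block and largest by absolute log2 fold change were Serpinf1 (-1.63), the collagen genes Col3a1 (-1.01), Col6a1 (-0.91) and Col6a2 (-0.90), and Thy1 (-0.95), a surface marker of fibroblasts. Cdh2, the N-cadherin gene that TWIST1 is known to activate, was picked for mention after its values were seen. It had 28.4, 37.5 and 32.8 RPKM in the controls and 39.3, 48.6 and 53.2 RPKM in the libraries labelled Nf2 KO (log2 fold change 0.50, adjusted p = 0.271 from limma, 0.0262 with the block). A link between Cdh2 and Twist1 was not tested. Vim, for vimentin, was 809 ± 63.2 and 660 ± 111 RPKM (SD, n = 3 each, adjusted p = 0.623 from limma). The list's median log2 fold change was -0.313.

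**Figure D4:**
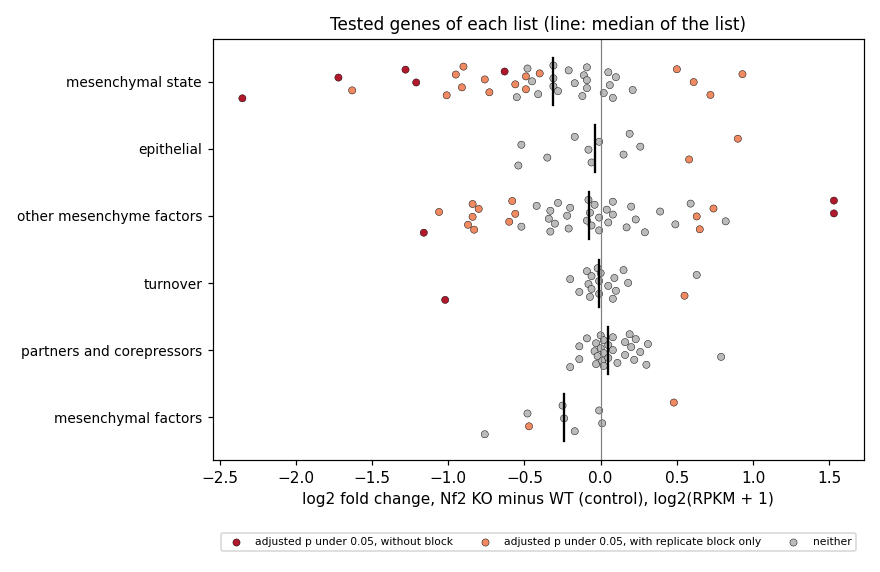
Log2 fold change (x axis, libraries labelled Nf2 KO minus WT (control), on log2(RPKM + 1)) of every tested gene of the 6 lists, where each point is a gene, its colour says in which limma fit it passed an adjusted p of 0.05, and the black line is the median of the list. The medians run from -0.313 for the mesenchymal state genes to 0.049 for partners and corepressors, with -0.239 for the mesenchymal factors.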

How the data were processed

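RNA of 6 MEF libraries, 3 labelled WT (control) and 3 labelled Nf2 KO, was sequenced and analysed by GENEWIZ. The authors deposited 1 table of RPKM values, 1 per gene and library, with replicates not pooled. The submitters' processing notes name the build mm10, and the aligner, counting tool, annotation and unit are not given in the sources used here. The unit was inferred: multiplied by GENCODE vM21 exon length, 83.7% to 85.5% of values of up to 20 reads lay within 0.05 of a whole number of reads, against 10.0% by chance, at depths of 13428884 to 72910883 reads. Whether reads or pairs were counted is unknown. Depth limits precision most in replicates 1 and 2, the shallower libraries.

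The test was limma (version 3.58.1, run under R 4.3.3, moderated with the trend and robust options) on log2(RPKM + 1), for the 11067 genes that reached 1 RPKM in 3 or more libraries. It was unpaired, as the study states for its tests, and two-sided, adjusted by Benjamini-Hochberg and called under 0.05. A log2(RPKM + 1) fold change understates that of low genes. Pairing was checked by correlating, across genes, how far the libraries of a number lay from the mean of their line (0.552, 0.819 and 0.516 for replicates 1, 2 and 3). Replicates 1 and 3 were less distinct, since control 3 with Nf2 KO 1 gave 0.493 and control 1 with Nf2 KO 3 gave 0.322, and control 2 gave -0.666 and -0.534 with the other numbers. The labels do not state a pairing. Same-numbered values all exceeded 0.1, so the numbers were taken as pairs, and blocked values stand beside results whose call or count they alter. Since 0.493 and 0.322 exceed it too, this limit does not tell replicates 1 and 3 apart. Single values were compared with exact permutation tests. Both fits were tested once on simulated data with real replicate shifts and known changes. Both recovered most changed genes and the unblocked fit called no unchanged gene. In the blocked fit the share of unchanged genes among its calls exceeded the threshold. The planted changes were larger than any member's log2 fold change, so recovery of differences of the members' size was not tested. Alternatives were other normalizations, pseudocounts, filters and thresholds, the block, the 2018 mark as a covariate, libraries left out and voom on recovered reads. Combinations of the block with other settings were chosen after seeing the data.

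The members and gene lists were chosen with earlier results of these data known. Named are all members, Nf2, list genes past the threshold without or with the block (up to 10 by absolute log2 fold change) or else those with the highest means, and for members with an SD of at least 0.5 the 3 genes nearest in pattern. Other genes named (Tcf3, Tcf12, Cdh1, Epcam, Vim, Cdh2, Acta2, Col5a2 and single cell type markers) were chosen after their values were seen. Promoter windows come from RefSeq (GRCm38.p6), and shared 31-base stretches and overlapping exons from GENCODE vM21. Plots used matplotlib 3.10.9.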

Additional observations from a re-analysis of the deposited data

How the results depend on the processing

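With the replicate number as a block, 2 members passed the threshold in place of 0, also with quantile normalization, median centring, a pseudocount of 0.1 or voom on recovered reads (2 each). The blocked count was 2 without replicate 1, 1 without replicate 2 and 1 without replicate 3, and the members called differed: Prrx1 and Tcf4, then Twist1, then Twist2. The block moved the counts to 833 of all genes (117 without it), 2 turnover, 15 other mesenchyme factor, 2 epithelial and 20 mesenchymal state genes, and left partners at 0. Without a low value filter 9 genes passed in all, 0 of them turnover, other mesenchyme factor or mesenchymal state genes. With a filter of 5 RPKM 63 passed in all, 0 of them other mesenchyme factors and 3 mesenchymal state genes. With the 2018 mark as a covariate 62 passed, 3 of them mesenchymal state genes. At an adjusted p under 0.1 there were 211, with 6 other mesenchyme factors and 2 epithelial genes, and voom called 5 other mesenchyme factors. Leaving out libraries or replicate numbers gave 0 to 1 members (Twist1 without replicate 2), 0 to 484 genes in all (484 without replicate 2, 0 without replicate 1 and 0 without replicate 3), 0 to 1 partners, 0 to 2 turnover, 0 to 11 other mesenchyme factor, 0 to 2 epithelial and 0 to 13 mesenchymal state genes (13 without replicate 2, 2 of them higher). The causes were not tested.

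Log2 fold changes near 0 changed sign in 3 members, none past the threshold. Prrx2 ranged from -0.776 (without replicate 1) to 0.374 with libraries left out: it was 0.374 without control replicate 2, 0.144 without Nf2 KO replicate 3, 0.278 without replicate 2 and 0.001 without replicate 3, the last 2 also with the block. Snai1 ranged from -0.193 (without replicate 1) to 0.146, being 0.040 and 0.023 without control replicates 2 and 3, 0.092 without Nf2 KO replicate 2, 0.146 without replicate 2 and 0.003 without replicate 3, the last 2 also with the block. Zeb1 ranged from -0.151 to 0.096 (without control replicate 3), being -0.151 without control replicate 2, -0.018 and -0.022 without Nf2 KO replicates 1 and 3, -0.098 without replicate 2 with and without the block, -0.001 with voom and -0.014 with voom and the block. The other 6 members kept their sign in every alternative run, though Snai2 was -0.138 without control replicate 3 and -0.086 without replicate 3, and Prrx1 was -0.458 without Nf2 KO replicate 2. The Twist1/Twist2 log2 ratio differed by 0.80 to 1.08 with a replicate number left out of both lines.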
